A study of Rattus norvegicus with 4 samples.

Results

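The T-box genes encode transcription factors that share a DNA-binding domain, the T-box, and direct the formation of heart, limbs, pharynx, skin, mesoderm and cortex. The members considered here were 10 genes: Tbx1, Tbx2, Tbx3, Tbx4, Tbx5, Tbx15, Tbx18, Tbx20, Tbr1 and Eomes. They were chosen by gene name, as the peaks of an H3K27me3 list that name one of them. In all, 9 of the 10 were named, by 535 of the 129550 peaks, and Eomes was named by none. These 535 peaks were 0.413% of the peaks and carried 0.823% of the summed peak score.

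H3K27me3 is trimethylation of histone H3 at lysine 27, the mark that Polycomb repressive complex 2 places on chromatin. It is known for broad domains over the start sites of developmental transcription factors in tissues that do not use them. The T-box family is known for arrays of neighbouring paralogs: Tbx2 lies beside Tbx4, and Tbx3 beside Tbx5, on separate chromosomes. Tbx2 and Tbx3 are close relatives that act mainly as repressors, and Tbx4 and Tbx5 are close relatives that act mainly as activators and are known for hindlimb and forelimb growth. The roles named here and below are known mainly from mouse and human.

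The tissue was sciatic nerve, taken from Sprague Dawley males at P42, postnatal day 42. It came from the sham side, which had only its skin opened, and was taken 1 day after the opposite nerve had been transected. The 4 libraries were 2 H3K27me3 immunoprecipitations of nuclease-digested chromatin and 2 inputs, and the number of animals behind each is not given. The authors deposited 1 combined peak list, placed on the rat assembly rn5, with a single score for each peak. It has no value per library, so there is no replicate error and no test, and the depth of each library is unknown.

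The scores lay on a grid, and the 95% intervals given with them are exact Poisson intervals that take 1 grid step as 1 sequenced tag. That is an assumption, and the intervals cover counting error only. In a tissue of mixed cells, a mark carried by more cells and a denser mark in fewer cells cannot be told apart. Over all 129550 peaks the medians were 191 bp in width and 4.54 in score, and 336 peaks reached 10000 bp. Of 34 markers of the cell types that a nerve sample can hold, 18 had a promoter peak as defined below, and it reached 5000 bp in 2, namely the fibroblast gene Pdgfra and the skeletal muscle gene Acta1. The shares over all protein-coding genes were 17.2% with a promoter peak and 2.36% with at least 5000 bp. Of 6 Schwann cell markers, 4 had a promoter peak, with a median score of 40.8, and the values ranged widely, as Erbb3 had 117.2, Mbp 77.4 and Sox10 4.13. A histone mark does not measure RNA, so these values describe the chromatin and do not establish which cells were present.

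The start-site sequences of 4 members are given because their peaks, described next, ran from the widest and highest in the family to the narrowest of the domains. Each is the RefSeq window of 300 bp, 250 bp before to 50 bp after the annotated start, on the assembly GRCr8 and not on rn5, written 5′ to 3′ on the strand of the gene with every CpG in capitals. Polycomb domains in mammals are known to sit on CpG-rich start sites. The Tbx20 window is chr8:31533960-31534259 on the minus strand, with 26 CpG. The Tbx5 window is chr12:42395310-42395609 on the minus strand of GRCr8, where rn5 has the gene on the plus strand, with 14 CpG. An ATG lies near the end of the Tbx5 window, and whether transcription begins at this annotated start was not tested. The Tbx4 window is chr10:71228306-71228605 on the plus strand, with 20 CpG. The Tbr1 window is chr3:66759553-66759852 on the plus strand, with 6 CpG.
Tbx20: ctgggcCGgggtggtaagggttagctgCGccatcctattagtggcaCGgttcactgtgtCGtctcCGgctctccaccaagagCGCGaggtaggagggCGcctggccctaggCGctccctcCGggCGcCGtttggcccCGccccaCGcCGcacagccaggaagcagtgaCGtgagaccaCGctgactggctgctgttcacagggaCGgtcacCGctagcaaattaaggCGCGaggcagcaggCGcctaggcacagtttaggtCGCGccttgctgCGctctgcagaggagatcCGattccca
Tbx5: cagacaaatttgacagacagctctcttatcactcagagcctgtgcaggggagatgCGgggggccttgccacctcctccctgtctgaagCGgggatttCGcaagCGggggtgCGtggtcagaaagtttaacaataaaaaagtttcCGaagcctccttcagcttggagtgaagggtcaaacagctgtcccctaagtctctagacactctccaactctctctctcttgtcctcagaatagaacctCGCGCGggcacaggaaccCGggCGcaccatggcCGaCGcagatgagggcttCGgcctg
Tbx4: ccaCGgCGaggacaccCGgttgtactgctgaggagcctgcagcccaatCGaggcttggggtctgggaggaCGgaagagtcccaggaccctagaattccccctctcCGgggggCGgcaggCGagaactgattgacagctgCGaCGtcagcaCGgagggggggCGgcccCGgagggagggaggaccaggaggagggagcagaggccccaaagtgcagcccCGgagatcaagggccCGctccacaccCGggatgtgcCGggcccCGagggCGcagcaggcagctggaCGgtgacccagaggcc
Tbr1: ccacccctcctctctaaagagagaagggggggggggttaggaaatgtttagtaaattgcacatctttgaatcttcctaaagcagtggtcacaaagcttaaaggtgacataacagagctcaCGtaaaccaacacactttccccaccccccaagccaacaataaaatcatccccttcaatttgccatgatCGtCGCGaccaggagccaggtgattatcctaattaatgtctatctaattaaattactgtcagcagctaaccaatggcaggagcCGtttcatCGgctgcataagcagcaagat

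The RefSeq table gave 9 windows for 8 members, with none matched for Tbx2 and Tbx3 and 2 for Tbx1. The members' windows held a median of 13 CpG, against 11 in the 21851 windows of all protein-coding genes. Windows of protein-coding genes with a promoter peak of at least 5000 bp had a median of 20. Of the windows not printed, those of Tbx1 had 12 and 24 CpG, that of Tbx18 had 13, and those of Tbx15 and Eomes had 8 each. The core T-box motif GGTGTGA, with its reverse complement TCACACC, was searched on both strands and was in 0 of the 9 windows, against 3.83% of the 33469 windows in the table. A match or its lack describes these letters in these windows and nothing more.

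Most of the family carried the mark over or beside their start sites, and in several members as wide domains. A promoter peak was a peak assigned to the gene that reached within 1000 bp of its transcription start site (TSS), as the authors annotated it. On that definition 8 of the 10 members had a promoter peak, where the share was 17.2% of the 23154 protein-coding genes and 38.6% of the 10296 that any peak names. A promoter peak of at least 5000 bp, called a domain here, was present at 6 members, namely Tbx1, Tbx4, Tbx5, Tbx18, Tbx20 and Tbr1, where the share was 2.36% of protein-coding genes. At least 10000 bp was reached by 4 members, Tbx4, Tbx5, Tbx18 and Tbx20, where the share was 0.769%. Any assigned peak of at least 10000 bp, at the start or away from it, was present for 6 of the 10, these 4 with Tbx3 and Tbx15, where the share was 1.14%. The remaining 2 genes with a promoter peak, Tbx2 and Tbx3, had narrow ones, and Tbx15 and Eomes had none.

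The widest promoter peak had a median width of 10998 bp in the 8 members with one, against 1351.5 bp over the 3970 other protein-coding genes with one. The median of the highest promoter peak score was 566.7 in these members and 40.8 in those other genes. Both medians leave out the 2 members and the 19174 other genes with no promoter peak. All 535 peaks together were mostly small, with a median of 206 bp for the members and 191 bp for the whole list, and median scores of 5.16 and 4.54. Peaks of at least 5000 bp numbered 15, or 2.80% of the members' peaks, where the share was 1.01% of all peaks. These 15 held 56.4% of the members' summed score, against 28.5% held by peaks of that size in the whole list.

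Ordered by the score of the highest promoter peak, the members ran Tbx20, Tbx5, Tbx4, Tbx18, Tbx1, Tbr1, Tbx2 and Tbx3. The scores were 1554.5 for Tbx20 (95% interval 1519 to 1590), 1384.3 for Tbx5 (1351 to 1418), 911.5 for Tbx4 (885 to 939) and 672.2 for Tbx18 (649 to 696). They were 461.2 for Tbx1 (442 to 481), 453.8 for Tbr1 (435 to 473), 86.2 for Tbx2 (78.1 to 94.9) and 75.9 for Tbx3 (68.3 to 84.1). Tbx1 and Tbr1 did not differ beyond their counting intervals, nor did Tbx2 and Tbx3, while every other pair of neighbours in this order had separate intervals. The highest peak of the gene was itself a promoter peak in 6 of these 8 and lay elsewhere at Tbx2 and Tbx3, where the share with it elsewhere was 37.3% of genes with a promoter peak. By width of the peaks as deposited the order was the same but for the last places, where Tbx3 with 2953 bp was wider than Tbx2 with 1816 bp. The width order changed when peaks no more than 1000 bp apart were joined. The run at the Tbx3 start was then the longest, with 40732 bp, against 27070 bp at Tbx5 and 26868 bp at Tbx20.

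**Figure D1:**
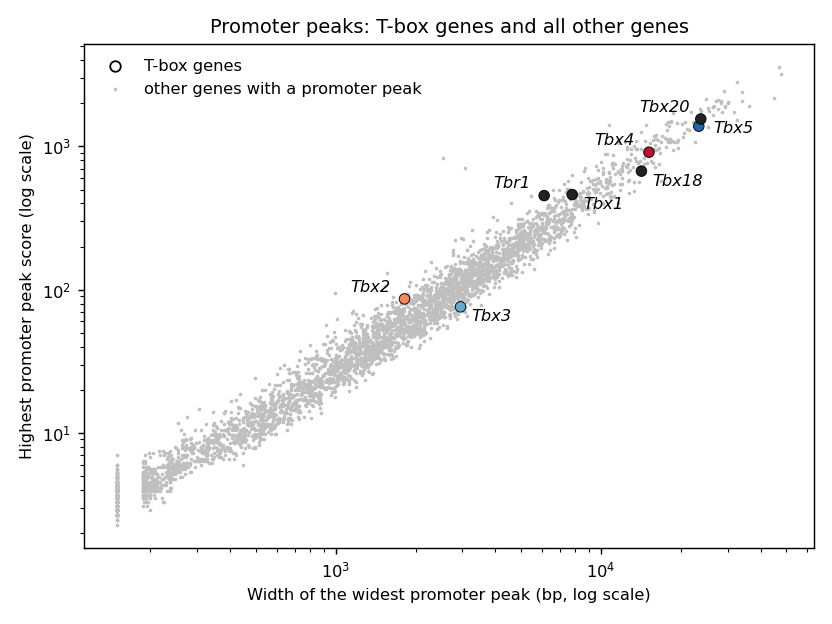
Width of the widest promoter peak (x axis, bp, log scale) and highest promoter peak score (y axis, log scale) for the 8 T-box members with a promoter peak (large points) and for the other protein-coding genes with one (grey points). Tbx20 and Tbx5 lie near the upper end of all genes, while Tbx2 and Tbx3, with 1816 and 2953 bp, lie among the bulk of the genes.

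Wider peaks collect more tags, so scores were also set per length. Per kb of peak, the score of the widest promoter peak was 74.3 for Tbr1, 65.3 for Tbx20, 60.1 for Tbx4, 59.2 for both Tbx5 and Tbx1, 47.5 for Tbx2, 47.3 for Tbx18 and 25.7 for Tbx3. The 15 member peaks of at least 5000 bp had 37.2 to 74.3 per kb with a median of 58.3, against a median of 47.2 over the 1313 peaks of that size in the list, with quartiles of 39.1 and 58.0. On this scale Tbr1, with the narrowest of the 6 domains, was the densest and Tbx3 the sparsest. The place of Tbx3 rests on the promoter reach. Its widest peak, of 14563 bp and outside that reach, had 61.2 per kb.

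**Figure D2:**
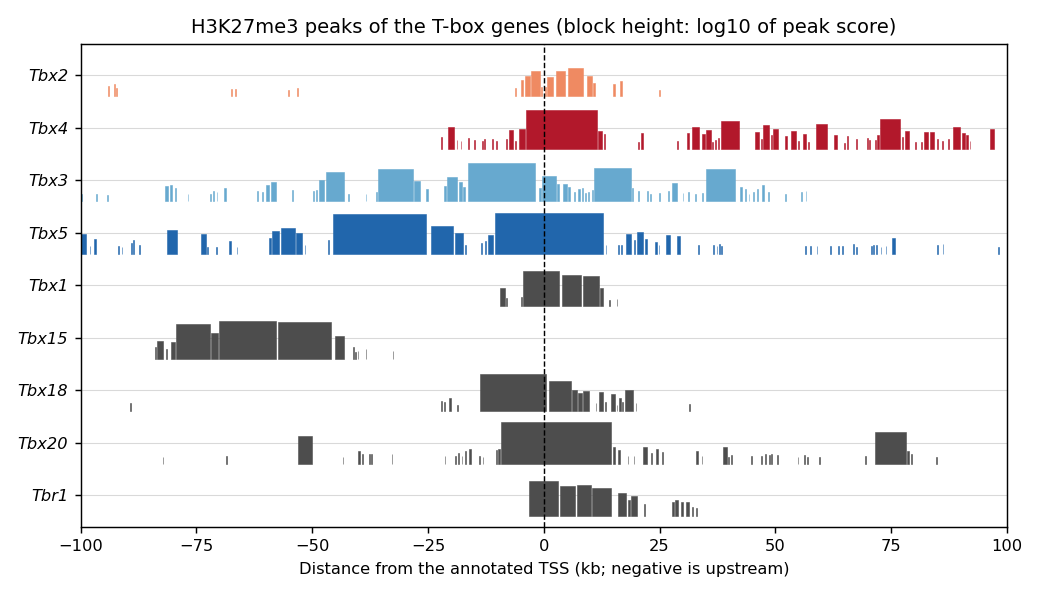
Peaks assigned to the 9 named members within 100 kb of each annotated TSS (dashed line), with distance in kb on the x axis, negative upstream, and 1 row per gene. Blocks are drawn at their true width with a height that grows with log10 of the peak score. Wide blocks cover the TSS of Tbx4, Tbx5, Tbx1, Tbx18, Tbx20 and Tbr1, the Tbx2 TSS lies between narrow blocks, and the Tbx15 blocks lie far upstream.

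Tbx2 and Tbx4 are neighbours on chromosome 10, both on the plus strand in rn5, with 51222 bp between their TSSs. Tbx2 is known for heart, limb and lung development and as a repressor of cell cycle inhibitors, and Tbx4 for hindlimb and lung outgrowth. The mark was far broader and higher at the Tbx4 start than at the Tbx2 start. The widest promoter peak of Tbx2 was 1816 bp, at chr10:73181533-73183349, with a score of 86.2, and that of Tbx4 was 15168 bp, at chr10:73231700-73246868, with a score of 911.5. The score ratio of Tbx2 to Tbx4 was 0.0946 (95% interval 0.0854 to 0.105).

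The Tbx2 TSS itself was in no peak. It lay in a gap of 484.5 bp, with the nearest peak edges 300.5 bp upstream and 184 bp downstream. A run of small and medium peaks stood on both sides, 4 of them within reach of the promoter. The highest was 3247 bp wide with a score of 141.3 (131 to 152), centred 6931 bp downstream in the last intron, intron 6 of 6. When peaks no more than 1000 bp apart were joined, the Tbx2 run measured 15805 bp with 10 peaks and a summed score of 443.9, against 21387 bp with 7 peaks and a summed score of 1013 for the run over the Tbx4 start. The joined extents were thus closer together than the single peaks. The start used for Tbx2 is that of a transcript that the GRCr8 gene table does not list for Tbx2. The gap, the promoter peak and the score ratio all rest on that start.

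The Tbx4 domain was centred 3844 bp downstream of the TSS, in exon 2 of 9, and covered the start. Beyond it the mark went on into the intergenic region downstream. Peaks centred 50 to 200 kb from the Tbx4 TSS held 41.7% of the score assigned to Tbx4. The highest of those was 4304 bp wide with a score of 184.4, centred 74862 bp downstream. Peaks no more than 5000 bp apart formed a run of 49 peaks over 81436 bp downstream of the domain, starting within 50 kb of the TSS, at chr10:73264276-73345712, with a summed score of 1063. Within 50 kb of the TSS lay 93.8% of the summed score of Tbx2, against 58.3% for Tbx4. Peaks are assigned to the nearest TSS and Tbx4 follows 51222 bp downstream, so no distant downstream peak could be assigned to Tbx2, whose last one was centred at 24951 bp, and these shares are not a comparison of like with like.

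Tbx3 and Tbx5 are neighbours on chromosome 12, in rn5 on the minus and the plus strand, with 390572 bp between their TSSs. Tbx3 is known for limb, mammary gland and heart conduction system development, and Tbx5 for forelimb initiation and heart septation. The start of Tbx5 lay in a wide domain, while the start of Tbx3 lay in a narrow peak beside one. The widest promoter peak of Tbx3 was 2953 bp, at chr12:44337111-44340064, with a score of 75.9, and that of Tbx5 was 23382 bp, at chr12:43938669-43962051, with a score of 1384.3. The score ratio of Tbx3 to Tbx5 was 0.0548 (0.0492 to 0.0609).

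This ratio rests on the promoter definition. The highest Tbx3 peak, at chr12:44341608-44356171, was 14563 bp wide with a score of 891.7 (865 to 919), and its edge lay 1869.5 bp upstream of the TSS. It was therefore outside the reach of 1000 bp. With a reach of 5000 bp, the ratio of Tbx3 to Tbx5 was 0.644 (0.620 to 0.669). The same change left the Tbx2 to Tbx4 ratio at 0.0952. The widest single peak of Tbx3 was thus close in width to that of Tbx4, but stood next to the start and not across it.

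Around Tbx3 the peaks spread on both sides of the gene. A peak of 7979 bp that scored 341 was centred 14795 bp downstream, and one of 6270 bp with a score of 285.1 was centred 38183 bp downstream. Upstream, a peak of 7502 bp that scored 278.9 was centred at 31960 bp. Assigned peaks covered 67.8% of the 50 kb upstream of the Tbx3 TSS and 49.9% of the 50 kb downstream.

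Around Tbx5 the cover was denser upstream, with 78.0% of the 50 kb upstream and 39.2% of the 50 kb downstream. A second peak of 20004 bp, at chr12:43903718-43923722, had a score of 1040.6 (1012 to 1070) and was centred 35446 bp upstream of the TSS. When peaks no more than 5000 bp apart were joined, the run that reached the promoter was 118698 bp at Tbx3 and 97726 bp at Tbx5. These were the longest such runs in the family, where the 6 other members with a promoter peak had 23183 to 47168 bp.

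Tbx3 had 223 peaks, the most of any member, of which 139 lay more than 200 kb from its TSS, out to 715479 bp, and held 32.6% of its summed score. Tbx5 had 83 peaks, and those more than 200 kb away held 1.86%. Summed over all assigned peaks, the score of Tbx3 was 4092 and that of Tbx5 was 3469, a ratio of 1.18 (1.16 to 1.20), which has the opposite direction to the promoter ratio. Within 50 kb of each TSS, the summed scores were 2488 for Tbx3 and 2836 for Tbx5, a ratio of 0.877. Each peak is assigned to the nearest TSS, so these sums also depend on how far away the next annotated gene lies.

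**Figure D3:**
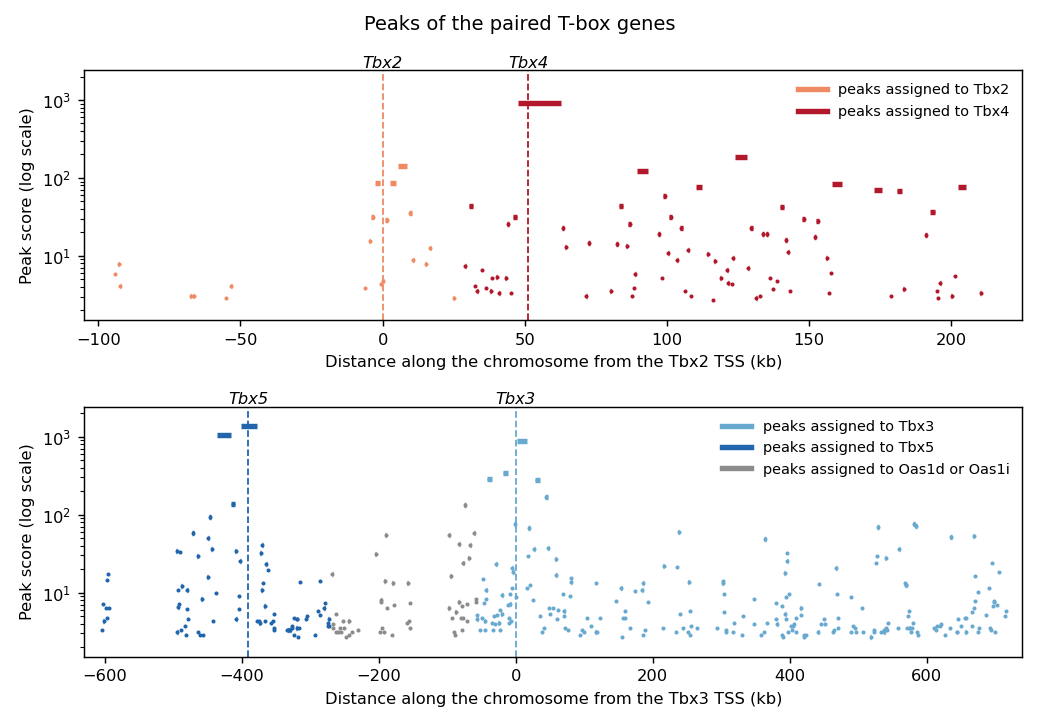
Peaks of the paired genes along the chromosome (x axis, kb from the Tbx2 TSS in the upper panel and from the Tbx3 TSS in the lower), with peak score on a log y axis; bars show true peak width, dots mark peak centres and dashed lines mark the TSSs. The Tbx4 domain of 15168 bp spans its TSS and the Tbx2 peaks are low, whereas the Tbx5 domain spans its TSS and the widest Tbx3 peak stands next to its own.

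The ground between the paired genes was marked unevenly. Between the Tbx2 and Tbx4 TSSs, 23 peaks covered 14570 bp, or 28.4% of the interval, with a summed score of 481.2. Between the Tbx3 and Tbx5 TSSs, 128 peaks covered 61169 bp, or 15.7% of the interval, with a summed score of 1893. In that interval the authors' annotation names Oas1d and Oas1i, genes of the oligoadenylate synthetase family of the antiviral response, by 54 peaks with a summed score of 727.9. The gene table of GRCr8 has no protein-coding gene between Tbx5 and Tbx3. The highest of these peaks scored 132 for Oas1d and 54.7 for Oas1i. The Oas1d and Oas1i peaks were left out of the values of Tbx3 and Tbx5, but are counted in the cover of the wider span given below. The spacing of Tbx3 and Tbx5 and the cover between them rest on rn5, which has Tbx5 on the other strand than GRCr8. Whether rn5 is right in this stretch was not tested.

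As whole loci, the Tbx2 and Tbx4 pair had 102 peaks that covered 83989 bp with a summed score of 2981, and the Tbx3 and Tbx5 pair had 306 peaks that covered 203545 bp with a summed score of 7561. In the span of peaks lying within 50 kb of either TSS, whichever gene they name, the cover was 43.5% of 106726 bp at Tbx2 and Tbx4 and 30.7% of 486953 bp at Tbx3 and Tbx5. The longer locus thus held more mark in total. Its span also takes in ground more than 50 kb from both TSSs, so these shares do not compare like with like. Within 50 kb of the TSS, assigned peaks covered 67.8% upstream and 49.9% downstream at Tbx3, and 78.0% and 39.2% at Tbx5. The shares were 7.61% and 18.2% at Tbx2 and 18.4% and 49.4% at Tbx4, where peaks between the genes are split by the nearest TSS.

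Tbx20, known for heart chamber and valve development, had the widest and highest promoter peak of the family. The domain of 23789 bp at chr8:25920100-25943889 had a score of 1554.5, covered the TSS, and was centred 2687 bp downstream in intron 1 of 6. Among the 3978 genes with a promoter peak it stood at place 30 by width and 31 by score. The domain held 63.3% of the summed score of Tbx20, and a separate peak of 6525 bp with a score of 268.4 was centred 74860 bp downstream. Its RefSeq window, printed above, had the most CpG of the members' windows.

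Tbx18, known for the sinus node, the epicardium, the ureter and the somites, had a domain of 14208 bp with a score of 672.2 at chr8:94887704-94901912. The domain was lopsided: it was centred 6683 bp upstream and ended just past the TSS. A second peak of 4677 bp with a score of 211.2 followed in intron 2 of 7. Within 50 kb, assigned peaks covered 29.8% upstream and 25.5% downstream, and 98.6% of the summed score lay there.

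Tbx1, known for the pharyngeal arches and the outflow tract of the heart, had 9 assigned peaks, all within 50 kb. This is set in part by assignment to the nearest TSS. Gp1bb, with a promoter peak at chr11:89618492-89623328, lies upstream and takes the peaks nearer to its own start. Its domain of 7788 bp at chr11:89647557-89655345 had a score of 461.2 and was centred 504 bp upstream of the TSS. Peaks of 3913 bp with a score of 239.3 and of 3435 bp with a score of 187.5 came next downstream. With gaps of up to 1000 bp joined, 5 peaks formed a run of 17855 bp over the gene.

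Tbr1, known for the identity of deep-layer cortical neurons, had a domain of 6105 bp with a score of 453.8 at chr3:54346151-54352256, centred 73 bp from the TSS. It was followed downstream by peaks of 3062, 3018 and 4113 bp, with scores of 211.8, 231.4 and 129.1. Joined over gaps of up to 1000 bp, these 4 made a run of 17721 bp. The run had a sharp upstream end: assigned peaks covered 6.25% of the 50 kb upstream and 38.7% of the 50 kb downstream. Tbr1 and Tbx1 were thus alike in score and in joined length. All of their assigned score lay within 50 kb, which at Tbx1 is set in part by the assignment of upstream peaks to Gp1bb.

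Tbx15, known for the skeleton, the skin and adipose and muscle cells, had wide peaks but none at its annotated TSS. Of its 14 peaks, all were upstream and intergenic, and the nearest edge was 32471 bp from the TSS. The highest was 12345 bp wide with a score of 732.5 (709 to 757), at chr2:220742100-220754445, centred 64014 bp upstream. On either side of it lay a peak of 11376 bp that scored 595.3 and one of 7214 bp with a score of 420.6. Joined over gaps of up to 1000 bp, 9 peaks made a run of 40945 bp at chr2:220728274-220769219 with a summed score of 1944, against 40732 bp for the joined run at the Tbx3 start. Peaks within 50 kb of the TSS held 3.88% of the summed score. The transcript whose start the authors used is not among those that the current gene table gives for Tbx15, nor is that of Tbx2, and whether another start lies within the run was not tested.

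Eomes, known for endoderm and mesoderm formation, for intermediate progenitors of the cortex and for cytotoxic lymphocytes, was named by no peak. In the gene order of GRCr8, Eomes lies between Cmc1 and Golga4. Whether the rn5 stretch between the TSSs of Cmc1 and Golga4 matches that order was not tested, and its peaks also name Ctdspl. This stretch of chromosome 8 held 86 peaks, of which 44 were assigned to Cmc1, 19 to Golga4 and the rest to Ctdspl. Those 19 carried a summed score of 2219.9. The widest were a peak of 13505 bp that scored 882.8 (857 to 910), at chr8:126355180-126368685, and a peak of 12816 bp that scored 965.8 (938 to 994), at chr8:126369071-126381887. They were centred 32010 and 18463 bp upstream of the Golga4 TSS, in an intron that the authors' annotation gives to a transcript of Ctdspl.

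Joined over gaps of up to 5000 bp, the 19 peaks made a run of 49749 bp that ended before the Golga4 TSS. Golga4, which encodes a golgin of the trans-Golgi network, had no promoter peak, and its 10 peaks outside this interval scored at most 11.3. The position of Eomes in rn5 was not used here, so these peaks are given by their place and not as peaks of Eomes.

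**Figure D4:**
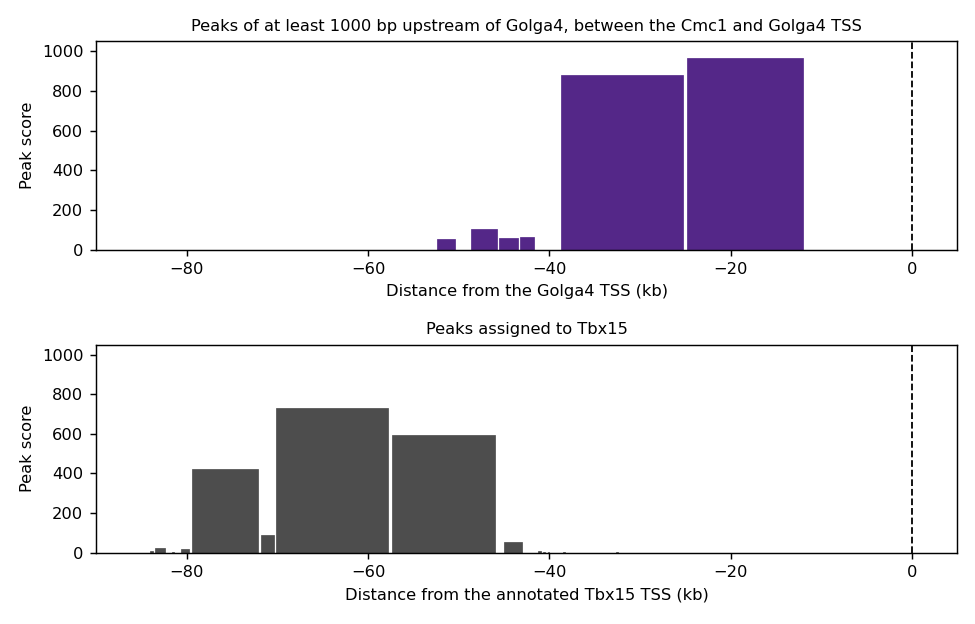
Peaks of at least 1000 bp assigned to Golga4 between the Cmc1 and Golga4 TSSs (upper) and all 14 peaks of Tbx15 (lower), with distance from the Golga4 or Tbx15 TSS in kb on the x axis and peak score on a linear y axis; blocks have true width. In both panels the wide peaks stand upstream of the dashed TSS, at 18463 and 32010 bp for Golga4 and at 64014 bp for the highest of Tbx15.

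Set side by side, the 4 paired genes and the 6 single genes overlapped in every measure. The widest promoter peak was 1816 to 23382 bp in the 4 paired genes, with a median of 9060.5 bp, and 6105 to 23789 bp in the 4 single genes that had one, with a median of 10998 bp. The highest promoter peak scores were 75.9 to 1384.3 in the paired genes and 453.8 to 1554.5 in the single genes. The number of peaks was 21 to 223 in the paired genes and 9 to 67 in the 5 single genes that any peak names. Summed peak width was 14276 to 121008 bp in the paired genes, with a median of 76125 bp, and 17526 to 52890 bp in those 5 single genes, with a median of 28321 bp. Summed score had a median of 2974 in the paired genes and 1198 in the single genes.

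The share of score close to the gene differed widely among the members. Peaks less than 10 kb from the TSS held 25.8% of the summed score of Tbx3, 39.4% of that of Tbx4 and 39.9% of that of Tbx5, but 87.4% of that of Tbx2. In the single genes the share was 86.5% for Tbx18, 77.0% for Tbx1, 74.9% for Tbr1, 63.8% for Tbx20 and 0% for Tbx15. The share of Tbx2 is set in part by assignment to the nearest TSS, since peaks farther downstream go to Tbx4. The same holds for Tbx1, since peaks farther upstream go to Gp1bb. Tbx15 was the only named member with no score under 10 kb.

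**Figure D5:**
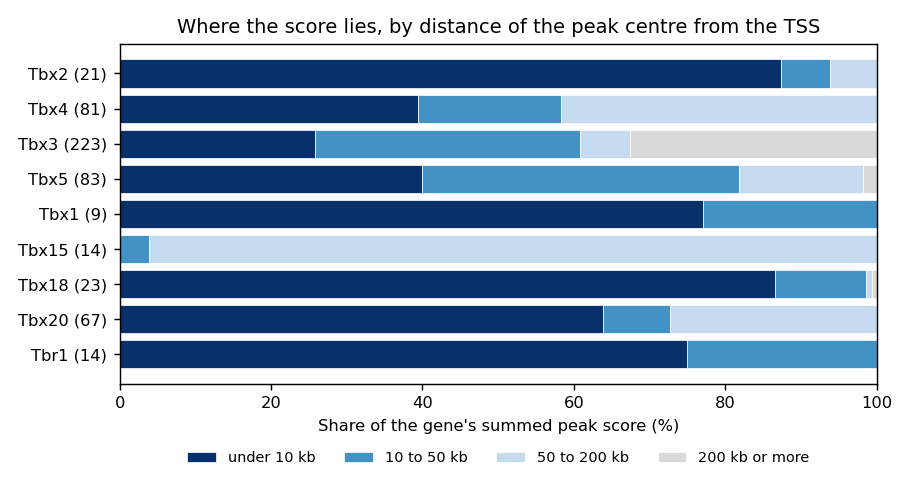
Share of each gene's summed peak score (x axis, %) by distance of the peak centre from the TSS, as stacked bars for the 9 named members, with the number of peaks in parentheses. The darkest part, under 10 kb, makes up 87.4% for Tbx2 and 86.5% for Tbx18 and is missing for Tbx15, whose score lies mostly at 50 to 200 kb.

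Of the 16 nearest protein-coding genes on either side of the members, 7 were named by any peak, 2 had a promoter peak and 0 reached 5000 bp with it. The shares over all protein-coding genes, 17.2% and 2.36%, are close to these counts, which are therefore no result about the neighbours. The promoter peaks were those of Gp1bb, a platelet receptor subunit gene beside Tbx1, with 4836 bp and a score of 138.6, and Slc4a10, a bicarbonate transporter gene near Tbr1, with 1534 bp and a score of 44.8.

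Among the other T-box genes, promoter peaks were found at 4 of 7 such genes, and 1 reached 5000 bp. The shares over all protein-coding genes were 17.2% and 2.36%. Tbxt, which encodes the mesoderm factor Brachyury, had a promoter peak of 5978 bp with a score of 290.8. Tbx22, known for palate formation, had 4834 bp and a score of 138. Tbx21, known for the T helper 1 fate, had 4037 bp and a score of 219.3, and Tbx19, a pituitary factor, had 150 bp and a score of 3.3. Tbx6, Tbx10 and Mga were named by no peak.

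Genes known to act with T-box factors, or downstream of them, were taken from 4 lists by organ. With the other T-box genes these lists held 58 different genes, of which 49 had a promoter peak. Over all protein-coding genes the shares were 17.2% with a promoter peak and 2.36% with at least 5000 bp, for each list below. The heart list had 15 of 17 with a promoter peak and 9 with at least 5000 bp, led by Gata4 with a score of 3590.4, Nkx2-5 with 2080.9 and Hand1 with 1175.1, all cardiac transcription factors. Nppa, the natriuretic peptide gene that Tbx5 activates, had a promoter peak of 1029 bp with a score of 28.9, whereas Nppb had none and Mef2c was named by no peak.

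The limb list had 13 of 13 with a promoter peak and 11 with at least 5000 bp, led by Alx4 with a score of 960.4, Hand2 with 955.2 and Lmx1b with 766.3, all patterning factors. Fgf10, the limb bud growth factor induced by Tbx4 and Tbx5, had 2706 bp and a score of 73.8. The cortex list had 10 of 13 and 7 with at least 5000 bp, led by Pax6 with 2802.2, Fezf2 with 1245.3 and Lhx2 with 1091.2. Neurog2, Auts2 and Emx1 were named by no peak. The list of pharyngeal and mesoderm genes had 10 of 11 and 6 with at least 5000 bp, led by Wt1 with 1743.4 and Pax3 with 1471.1, and Sall4 was named by no peak.

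Families of developmental transcription factors that are known as Polycomb targets had wide promoter peaks in a larger share of their genes. Promoter peaks of at least 5000 bp were present at 6 of the 10 T-box members, against 5 of 6 Gata genes, 5 of 5 Zic genes and 8 of 9 Pax genes. The 10 members are a part of the T-box family, and 1 of the 7 other T-box genes had such a peak. The share over all protein-coding genes was 2.36%. The median widest promoter peak was 10998 bp in the T-box members, against 11306 bp in the Gata genes, 18311 bp in the Zic genes and 19475 bp in the Pax genes. The median highest score was 566.7 in the T-box members, against 749.6, 1475.7 and 1369.6 in the Gata, Zic and Pax genes. None of the median values of the T-box members exceeded those of the other families, and no difference between the families was tested.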

How the data were processed

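H3K27me3 and input libraries came from sham-side sciatic nerve, 2 of each. The submitters' processing notes name CASAVA 1.8.2, Bowtie and HOMER. Per the file headers, the combined H3K27me3 peaks were annotated with HOMER against rn5. How peaks were called, whether input was subtracted, how replicates were merged and which Bowtie version ran is not given in the sources used here. Scores are the authors' deposited values, 1 per peak, on a scale that is not stated, and served only for description, ranks and filters inside the list. Peak widths, coordinates and distances to the TSS in bp are also the authors' deposited values. A peak is assigned to the gene whose TSS is closest to its centre.

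All values were computed with Python 3.11.15, pandas 2.3.3, numpy 2.4.6 and scipy 1.17.1, and the code was tested on simulated data. A promoter peak had its centre no farther from the TSS than the sum of 1000 bp and its width divided by 2. For the 97601 peaks that scored under 10, 100% of scores were whole multiples of 0.206263 within a tolerance of 0.005, and this step was taken as 1 tag. Intervals of scores are exact Poisson and those of ratios exact conditional, both at 95%. Ratios put Tbx2 over Tbx4 and Tbx3 over Tbx5. Of the 10647 genes named, 10567 matched the GRCr8 gene table by identifier and 10 by symbol, together 99.3%, and the table was used for names, order and biotype. Genes named by no peak were counted as lacking a promoter peak, and such a gene cannot be told from one absent from the authors' annotation. With 1 list and no value per library, no sample was compared with another and no p-value was computed.

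The members and the gene lists were chosen with earlier results of these data known. Genes named were all members, the other T-box genes, the nearest protein-coding neighbours that a result concerned, and from each list the 3 highest promoter scores and every gene without a promoter peak. Some genes that this rule takes are not reported here. Nppa, Fgf10, Sox10, Erbb3, Mbp, Pdgfra and Acta1, and the genes of the closing observations, were named after their values were seen. Alternatives changed the promoter reach, the score minimum, the joining of nearby peaks, the score measure and the window around the TSS.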

Additional observations from a re-analysis of the deposited data

How the results depend on the processing

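No paired analysis was possible because the combined list holds no value per library, and for the same reason no replicate could be left out. The number of members with a promoter peak was 8, and 7 to 8 under other reaches and score minimums, but 4 when only peaks classed by the authors as promoter-TSS counted; the 49 partner and other T-box genes became 11 under that class. Over all protein-coding genes the 3978 with a promoter peak became 1424 where the peak had to contain the TSS, 6415 at a reach of 5000 bp and 1915 under the promoter-TSS class. Under that first rule the limb genes fell to 7, against 13 as reported, and the other T-box genes to 2, against 4. The number of members with a domain was 6 as deposited and in the top 25% of scores. It was 7 at a reach of 5000 bp, with Tbx3 added, and 8 with nearby peaks joined, with Tbx2 and Tbx3 added. The share of 2.36% of protein-coding genes holds for the peaks as deposited, and no such share is given here for joined peaks. The median widest promoter peak, 10998 bp, became 22415.5 bp with gaps of 1000 bp joined, 38854 bp with gaps of 5000 bp joined and 14385.5 bp at a reach of 5000 bp. The median highest promoter score, 566.7, became 1965 as the summed score, 732.5 over any peak, 59.2 per kb and, at a reach of 5000 bp chosen after seeing the data, 782.0. The median summed width, 37638 bp, became 36274 bp in the top 25% of scores and 27653 bp within 50000 bp of the TSS.

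At Tbx2 and Tbx4 the covered length was 46378 bp in the window around the TSSs and 72665 bp in the top 25% of scores, with summed scores of 1918 and 2706. At Tbx3 and Tbx5 these lengths were 149557 and 160398 bp, with scores of 6192 and 6538. The window there runs across the ground between the genes. It includes the 54 peaks of Oas1d and Oas1i, with a summed score of 727.9. The Tbx2 to Tbx4 ratio was 0.203 for summed score, 0.790 per kb and 0.326 within 50000 bp. The Tbx3 to Tbx5 ratio reversed to 1.18 for summed score and was 0.434 per kb, 0.877 within 50000 bp and, with the added reach of 5000 bp, 0.644. The reversal came with the distant peaks of Tbx3, which that sum includes. Depth per library is unknown, so a peak below the smallest listed score of 1.86 could not be seen.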

Other observations

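In some genes that act with T-box factors, the highest peak was not at the promoter, as at Tbx2 and Tbx3. The highest-scoring peak lay outside the promoter reach in 2 of the 8 members with a promoter peak and in 16 of the 49 partner and other T-box genes with one, where the share was 37.3% of the 3978 protein-coding genes with one. Both counts are near or below that share and are therefore no result about these genes. The genes that follow are single examples. Foxa2, a factor of endoderm and floor plate, had a promoter peak with a score of 157 and a peak of 19540 bp that scored 1441 centred 10847 bp downstream of its TSS. Hand2, a factor of heart and limb buds, had a promoter peak with a score of 955.2 and a peak of 25950 bp that scored 1412.1 centred 78835 bp downstream. Meis2, a factor of the proximal limb, had a promoter peak with a score of 595.1 and a peak of 16581 bp that scored 1087.3 centred 207585 bp downstream. The wide Foxa2 peak began at chr3:148794564, just past the end of the promoter peak at 148794181. It thus stood beside the start, narrowly outside the promoter reach, as the widest Tbx3 peak did near its own. Whether the distant peaks of Hand2 and Meis2 lie over other starts or over unannotated genes was not tested.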
